A study of Mus musculus with 20 samples.

Results

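Transcripts of 10 hypothalamic neuropeptide genes, Avp, Oxt, Hcrt, Pmch, Agrp, Trh, Crh, Ghrh, Gal and Cartpt, were examined in whole mouse brain. The genes were taken from a list of peptides known from hypothalamic neurons, and 10 of 10 were found among the 19463 genes of the expression table. RNA was sequenced from male Katnal2-KO and WT mice on a C57BL/6J background at 3 weeks (P21) and 10 weeks (P70) of age, with 5 mice in each of the 4 groups and 20 mice in all. Katnal2 encodes a katanin-like, microtubule-associated ATPase. The KO mice were homozygous for a deletion of exon 3 that shifts the reading frame. The line came from 1 targeted stem cell allele, Katnal2tm1a(EUCOMM)Wtsi, was backcrossed for more than 5 generations, was bred to Protamine-Flp mice to give the floxed allele, and lost the exon through a cell-permeable Cre protein (HTNC) applied to early embryos, so the deletion is not limited to a cell type. Littermates of mixed genotype shared cages after weaning. Values are read counts that had been normalized between mice by the authors and are called normalized counts.

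Neuropeptides are cut from larger precursors, packed into dense-core vesicles and released to act on G protein-coupled receptors. Vasopressin (Avp) and oxytocin (Oxt) are made mainly by magnocellular neurons of the supraoptic and paraventricular nuclei, whose axons end in the posterior pituitary. Orexin (Hcrt) and melanin-concentrating hormone (Pmch) are made by separate but intermingled neurons of the lateral hypothalamus that act on wakefulness, sleep and feeding. Trh, Crh and Ghrh encode hormones that drive thyrotropin, corticotropin and growth hormone release from the anterior pituitary, and Agrp, Gal and Cartpt encode peptides tied to feeding. Trh, Crh, Gal and Cartpt are also made outside the hypothalamus, and a whole-brain value adds all sites together. In such bulk samples, fewer cells of a type and less RNA per cell cannot be told apart.

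The Avp and Oxt genes are neighbours on chromosome 2 and arose from a duplication, and they are shown here because part of their sequence can give the same read. In GRCm38 (GENCODE M21), Oxt lies at chr2:130576173-130577054 on the plus strand and Avp at chr2:130580620-130582554 on the minus strand, with 3565 bases between their 3′ ends. Exon 2 of each gene is 202 bases long, is coding throughout and encodes the core of neurophysin, the carrier protein of both hormones. The 2 exons, Avp at chr2:130581056-130581257 and Oxt at chr2:130576591-130576792, are printed from GENCODE M21 and GRCm38 in the sense direction of each gene, 5′ to 3′, with capitals at the bases that differ.
Avp exon 2: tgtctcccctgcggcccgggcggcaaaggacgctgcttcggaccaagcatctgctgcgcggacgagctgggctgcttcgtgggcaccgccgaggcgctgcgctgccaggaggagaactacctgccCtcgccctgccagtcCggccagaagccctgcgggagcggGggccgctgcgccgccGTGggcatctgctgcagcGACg
Oxt exon 2: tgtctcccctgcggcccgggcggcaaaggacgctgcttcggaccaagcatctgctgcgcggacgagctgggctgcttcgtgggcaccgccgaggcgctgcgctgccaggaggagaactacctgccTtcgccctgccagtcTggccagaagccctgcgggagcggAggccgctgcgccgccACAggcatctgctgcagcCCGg
The exons are identical at 193 of 202 positions (95.5%), and the first 125 bases do not differ. With reads of 100 bases, 28 of the 478 windows of that length in the Avp transcript also occur in the Oxt transcript. A single read from these windows fits both genes, but the reads were paired. Only a pair lying wholly within the longest identical run, 127 bases, fits both and is divided by estimation. The values of Avp and Oxt are uncertain to the extent of such pairs, whose number was not measured.

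The upstream sequences of Hcrt and Pmch are shown because these genes deviated together from mouse to mouse in the data given below. They are the 250 bases before the annotated start in RefSeq on GRCm38.p6, printed 5′ to 3′ on the strand of the gene, for Hcrt chr11:100762932-100763181 on the minus strand and for Pmch chr10:88090822-88091071 on the plus strand. Capitals mark TATAAA, the letters of a TATA box, the only motif that was searched.
Hcrt upstream: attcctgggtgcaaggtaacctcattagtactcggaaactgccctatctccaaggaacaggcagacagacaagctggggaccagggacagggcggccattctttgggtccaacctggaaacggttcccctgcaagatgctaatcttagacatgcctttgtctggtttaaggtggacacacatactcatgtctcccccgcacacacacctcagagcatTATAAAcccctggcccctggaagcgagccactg
Pmch upstream: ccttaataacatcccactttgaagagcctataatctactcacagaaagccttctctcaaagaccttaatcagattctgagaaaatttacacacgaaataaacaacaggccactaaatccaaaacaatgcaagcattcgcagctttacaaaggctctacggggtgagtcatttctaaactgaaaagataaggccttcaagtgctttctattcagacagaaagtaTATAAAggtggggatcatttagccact
TATAAA began 33 bases before the start of Hcrt and 27 bases before that of Pmch. It occurred on the strand of the gene in 7.6% of 32851 RefSeq promoters cut to the same 250 bases, on either strand in 12.4%, and on the strand of the gene within the last 60 bases in 2.9%. Of the 8 neuropeptide genes with an entry, 3 held it on their own strand, the third being Ghrh. The match is a description of the letters and not of a site in use.

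Approximate depths, read from the spacing of the low values, were 26300000 to 36100000 reads per mouse at P21 and 23000000 to 27900000 at P70. Normalized counts of Katnal2 were 99.3 to 115 in P21 WT and 78.1 to 96.0 in P21 KO mice, 2 ranges that did not overlap, and 101 to 141 in P70 WT and 95.1 to 125 in P70 KO mice, which did. A deletion of 1 exon leaves the rest of the gene countable, so these values check the labels only in part. Among 28 hypothalamic transcription factor genes found in the table, which mark hypothalamic tissue, none was listed at 0 in every mouse, and their summed normalized counts spanned 10211 to 12956 over the 20 mice. Anterior pituitary RNA was uneven between brains, with Gh, the growth hormone gene, at 1113 in P21 KO mouse 3, 1811 in P21 WT mouse 2, 6179 in P70 KO mouse 3, 348 in P70 KO mouse 4 and no more than 90 in the others. The P70 WT and P70 KO mice numbered 5 stood apart in transcript length. The median deviation of 2009 genes with transcripts under 1000 bases from their means over all 20 mice was 0.25 and 0.30 on the log2 scale in these mice. No other mouse exceeded 0.16.

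Levels were compared between genes only per kilobase of transcript. Pmch was the highest at 506 normalized counts per kilobase (mean of 20 mice), followed by Avp (428), Oxt (402), Cartpt (330), Hcrt (231), Trh (140), Gal (87.4), Crh (86.6), Agrp (11.3) and Ghrh (10.5). Neighbours at the top of this order were not cleanly separated, since Pmch exceeded Avp in 15 of 20 mice, Avp exceeded Oxt in 13 and Oxt exceeded Cartpt in 14. Gal and Crh could not be ordered, with Gal higher in 10 of 20 mice. The clear steps were from Trh to Gal and from Crh to Agrp, each seen in 20 of 20 mice.

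**Figure D1:**
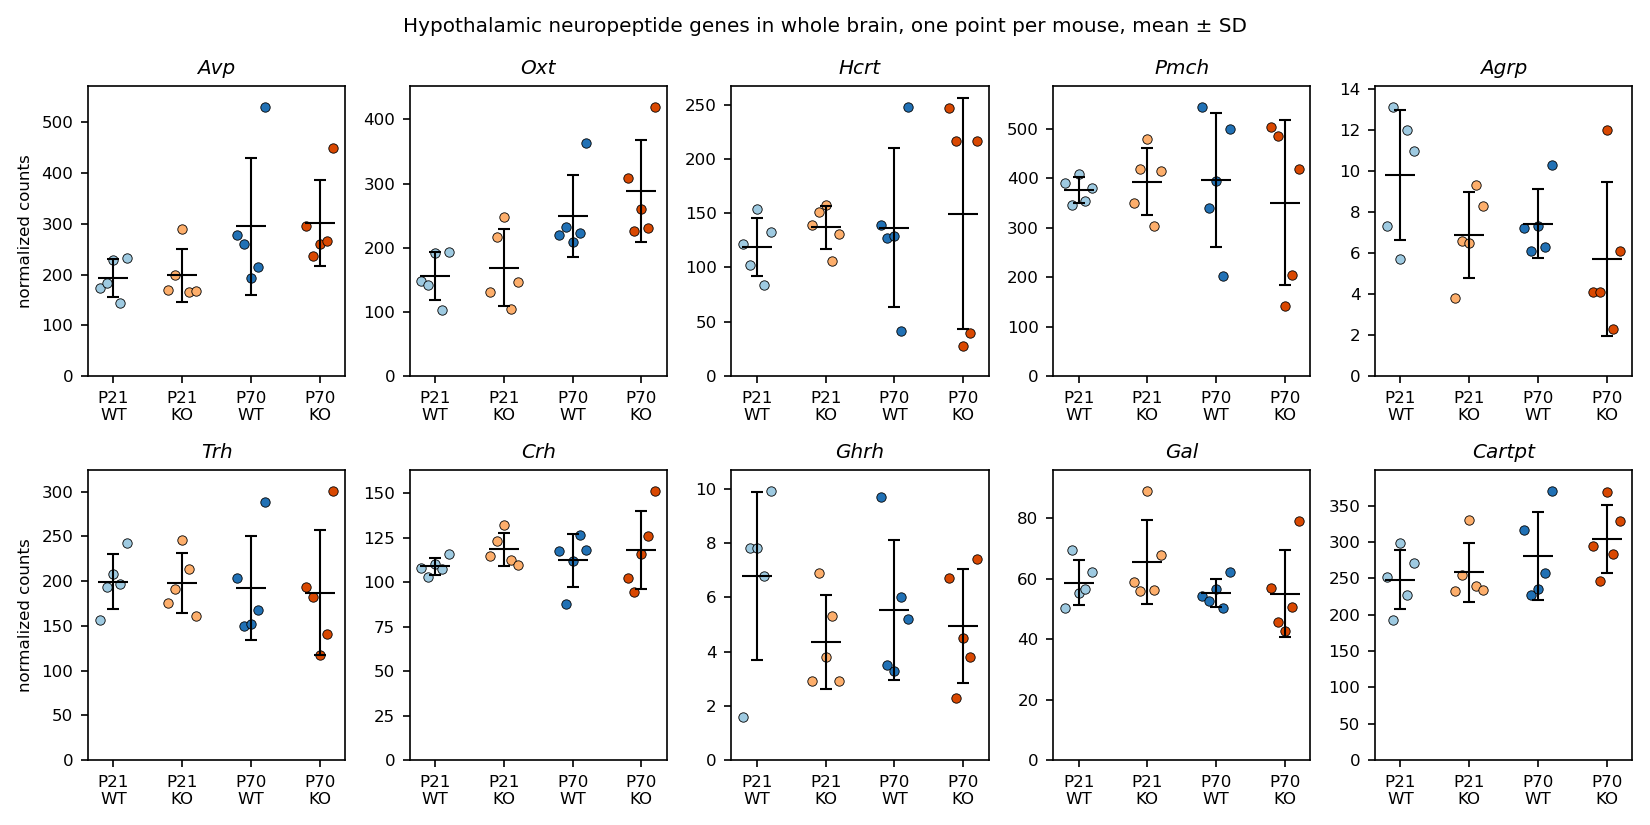
Normalized counts (vertical axes, each from 0) of the 10 neuropeptide genes in whole brain by group (horizontal axes), with 1 point per mouse, a bar at the group mean and an error line of 1 SD (n = 5 mice per group). Oxt in P70 WT mice (210 to 363) lay above all P21 WT mice (103 to 193), and Hcrt and Pmch were widely spread at P70.

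The KO and WT groups were compared at each age to ask whether loss of Katnal2 moves the neuropeptide genes. Of the 10 genes, 8 passed the filter of a mean of at least 10 normalized counts, and Agrp and Ghrh did not and were not tested. At P21 none of the 8 passed the threshold of an adjusted p of 0.05 (limma with Benjamini-Hochberg adjustment over 17610 genes), where 0.0% of all tested genes passed in either direction. At an unadjusted p under 0.05 the count was 0 of 8, against 2.44% of all tested genes. The KO and WT ranges overlapped for all 10 genes, while 0.256% of all tested genes lay wholly higher and 0.204% wholly lower in KO mice. At P70 0 of 8 passed with adjustment (0.0% of 17613 genes in either direction) and 0 of 8 without it (1.13% of all tested genes), and all 10 ranges overlapped (background 0.0965% higher and 0.0965% lower). The median log2 fold change of the 8 genes was 0.07 at P21 and 0.01 at P70, beside 0.004 and -0.005 over all tested genes.

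The width of the intervals differed strongly between the genes. For Avp at P21 the KO to WT fold was 1.02 (95% interval 0.794 to 1.31), and at P70 it was 1.06 (0.721 to 1.57). Oxt gave 1.06 (0.747 to 1.5) at P21 and 1.15 (0.859 to 1.54) at P70, so a change of 2-fold in either hormone gene was outside the interval at both ages. The largest difference at P21 was that of Hcrt, 0.22 on the log2 scale (95% interval -0.13 to 0.57). At P70 the interval of Hcrt ran from -1.61 to 1.26 around -0.17, and that of Pmch from -1.07 to 0.55 around -0.26, so that for Hcrt a difference of 2-fold either way was not detectable with these mice.

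The releasing-hormone and feeding-peptide genes gave the following levels. Crh, the peptide that starts the stress axis, had the smallest spread of the 10 genes over the 20 mice and was at 109 ± 4.88 (SD, n = 5) in P21 WT, 118 ± 9.21 in P21 KO, 112 ± 14.8 in P70 WT and 118 ± 22.1 in P70 KO mice. Trh, the head of the thyroid axis, was at 200 ± 30.6, 198 ± 33.5, 192 ± 57.9 and 187 ± 70.3 in the same order of groups. Gal, encoding galanin, was at 58.8 ± 7.35, 65.7 ± 13.8, 55.3 ± 4.56 and 55.1 ± 14.4. Cartpt, encoding the CART peptide, was at 248 ± 40.6, 258 ± 40.9, 281 ± 60.4 and 304 ± 46.5. The groups overlapped in every comparison for these 4 genes, and the fold changes with age of Cartpt were 0.17 in WT (95% interval -0.16 to 0.50) and 0.24 in KO mice (-0.04 to 0.52) on the log2 scale.

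Agrp and Ghrh, both peptides of small arcuate cell groups, were near the limit of measurement in whole brain. Agrp means were 9.81 ± 3.17 in P21 WT, 6.90 ± 2.08 in P21 KO, 7.46 ± 1.67 in P70 WT and 5.74 ± 3.77 in P70 KO mice (SD, n = 5). Ghrh means were 6.76 ± 3.12, 4.35 ± 1.75, 5.55 ± 2.60 and 4.94 ± 2.12. Since 1 read was worth 0.766 to 1.19 normalized counts, these values rest on a few reads per mouse. The annotated Agrp gene spans 70696 bases and overlaps Ctcf and Ripor1 on the other strand, and Pmch overlaps Parpbp on the other strand. The library kit named in the methods does not mark strand, so reads of such pairs cannot be told apart where their exons overlap.

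Age was compared within each genotype, to ask how the neuropeptide genes differ between juvenile and adult brain. Avp and Oxt were higher at P70 than at P21 in both genotypes, and Oxt in WT mice was the only one of the 8 tested genes to pass the threshold within a genotype. In WT mice numbered 1 to 5, Oxt was at 147, 142, 192, 103 and 193 normalized counts at P21 and at 219, 232, 210, 223 and 363 at P70. All P70 WT mice lay above all P21 WT mice, and mouse 5 was the highest at P70. Mean Oxt went from 156 ± 37.9 to 249 ± 63.9 (SD, n = 5), a rise of 0.68 on the log2 scale (SE 0.19, 95% interval 0.28 to 1.09, limma adjusted p = 0.0363). Among all 17630 genes tested, 4.62% rose and 4.70% fell in this comparison, 5.20% lay wholly higher at P70 and 5.60% wholly lower.

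In KO mice numbered 1 to 5, Oxt was at 131, 216, 248, 104 and 146 at P21 and at 309, 226, 260, 231 and 418 at P70. P21 mouse 3 lay above P70 mice 2 and 4, so the ages overlapped. The mean was 169 ± 60.5 at P21 and 289 ± 79.7 at P70 (SD, n = 5), a log2 difference of 0.80 (SE 0.24, 95% interval 0.28 to 1.33, limma adjusted p = 0.0599). None of the 8 genes passed in KO mice, beside 3.78% of 17641 genes that rose and 4.53% that fell, and none had ranges that did not overlap, beside 5.40% wholly higher and 5.52% wholly lower.

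Avp in WT mice was at 174, 184, 229, 145 and 232 at P21 and at 279, 261, 192, 215 and 529 at P70. Only mice 1, 2 and 5 of the P70 WT group lay above every P21 WT mouse. The log2 difference was 0.54 (SE 0.23, 95% interval 0.04 to 1.04, limma adjusted p = 0.171). In KO mice Avp was at 169, 199, 290, 167 and 168 at P21 and at 295, 237, 259, 266 and 450 at P70. P21 KO mouse 3 was above 3 of the P70 KO mice, and the log2 difference was 0.60 (SE 0.19, 95% interval 0.18 to 1.02, limma adjusted p = 0.0795).

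The age differences of Avp and Oxt did not differ detectably between genotypes. The interaction term was 0.06 (95% interval -0.62 to 0.74) for Avp and 0.12 (-0.56 to 0.80) for Oxt on the log2 scale, and 0 of 8 genes and 0.0% of 17637 genes passed, with 0 of 8 and 1.68% at an unadjusted p under 0.05. Averaged over both genotypes in 1 fit of 20 mice, a contrast added after these values were seen, Oxt was 0.74 higher at P70 (SE 0.16, limma adjusted p = 0.00195) and Avp 0.57 higher (SE 0.16, adjusted p = 0.014) on the log2 scale. These were 2 of the 8 tested genes, where 12.6% of all tested genes rose and 12.8% fell.

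The mice numbered 5 had the highest Avp and Oxt at P70 in both genotypes and were also the mice with the shifted short transcripts. Without both of them, Oxt was 0.54 higher at P70 in WT (limma adjusted p = 0.0384) and 0.66 higher in KO mice (adjusted p = 0.0501) on the log2 scale. Avp was then 0.30 higher in WT (adjusted p = 0.20) and 0.44 higher in KO mice (adjusted p = 0.0579). With a smooth trend on transcript length removed from each mouse, Oxt was 0.72 higher in WT (adjusted p = 0.00502) and 0.81 in KO mice (0.0185), and Avp 0.58 (0.0438) and 0.60 (0.0171), all past the threshold. Without the mice whose Gh value exceeded 1000, in WT only P21 mouse 2, Oxt in WT was 0.66 higher (limma adjusted p = 0.0807), so its call was lost. Avp in KO mice then passed at 0.79 (limma adjusted p = 0.0443). The length correction and the choices to leave out both mice numbered 5 or the mice with high Gh were not planned settings.

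**Figure D2:**
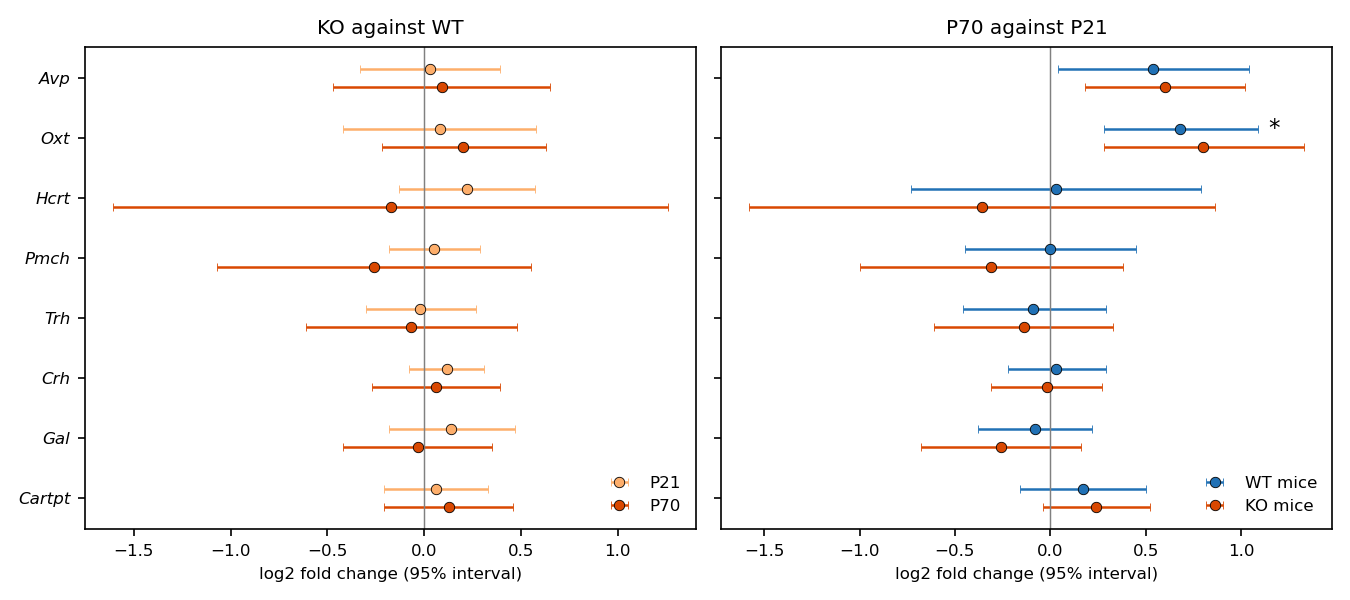
Log2 fold changes (horizontal axes, log2 units) of the 8 tested neuropeptide genes, KO against WT at each age on the left and P70 against P21 in each genotype on the right, with 95% intervals from limma (n = 5 mice per group). An asterisk marks an adjusted p under 0.05, which only Oxt in WT mice reached (0.68). The intervals of Avp and Oxt lay above 0 in both age comparisons. For Hcrt and for Pmch, the interval was wider in each comparison that held P70 mice than in KO against WT at P21.

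Hcrt and Pmch had no age difference that passed, and their spread between mice differed with age. Hcrt at P21 was at 122, 102, 154, 83.6 and 132 in WT mice 1 to 5 and at 139, 151, 157, 106 and 131 in KO mice. At P70 it was at 139, 127, 129, 41.6 and 247 in WT mice and at 246, 217, 27.3, 40.0 and 216 in KO mice. At P70, WT mouse 4 and KO mice 3 and 4 were lower than every P21 mouse, and WT mouse 5 and KO mice 1, 2 and 5 were higher than every P21 mouse. The highest value was 9.03 times the lowest among P70 KO mice and 5.94 times among P70 WT mice, and 1.48 and 1.84 times at P21.

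Pmch varied in the same mice. At P21 it was at 389, 346, 409, 353 and 381 in WT mice and at 350, 418, 478, 303 and 415 in KO mice. At P70 it was at 543, 340, 395, 203 and 499 in WT mice and at 504, 485, 142, 203 and 419 in KO mice. WT mouse 4 and KO mice 3 and 4 again held the lowest P70 values. Both genotypes held such mice. The sign of the KO to WT log2 difference at P70 rested on single mice. For Hcrt it turned to 0.31 without KO mouse 3, to 0.17 without KO mouse 4 and to 0.09 without WT mouse 5, and for Pmch to 0.02 without KO mouse 3. For Hcrt the means of 149 in KO and 137 in WT mice already had the opposite order to the log2 difference.

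The SD of the log2 deviations from the group mean was 0.29 for Hcrt at P21 and 1.25 at P70, and 0.19 and 0.70 for Pmch. Over all 17617 genes of the 20-mouse fit the median SD was 0.15 at P21 and 0.24 at P70. Over 20 mice Hcrt was more variable than 98.6% of all genes and Pmch than 91.7%, and than 99.1% and 99.2% of genes within 1.5-fold of the same level. Avp, Oxt and Trh lay at 84.5%, 84.3% and 80.5% of all genes, Gal and Cartpt at 62.1% and 62.4%, and Crh at 40.3%. For Oxt the SD was 0.45 at P21 and 0.35 at P70, the reverse order.

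In the 3 P70 mice that were low in Hcrt and Pmch, other hypothalamic genes were measured as well. Avp was at 215 in WT mouse 4, 259 in KO mouse 3 and 266 in KO mouse 4, and Oxt at 223, 260 and 231, within the range of the other P70 mice. Trh was at 167, 118 and 141 in the same order, and KO mice 3 and 4 were the lowest of all 20 mice. Gal was at 50, 43 and 51, and KO mouse 3 was the lowest of all 20 mice. Crh (126, 116 and 126) and Cartpt (257, 368 and 283) lay inside or near the upper end of the P70 range. Lhx9, a transcription factor gene of orexin neurons, was at 202, 173 and 188, with 148 to 257 in all P70 mice. The mean log2 deviation of the hypothalamic transcription factors from their means over 20 mice was -0.12, 0.01 and -0.07 in these mice, and -0.12 to 0.13 over all P70 mice. Gh was at 29, 6179 and 348 in them. The part of dissection or of pituitary RNA in the Hcrt and Pmch values was not tested.

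To see which neuropeptide genes deviated together within a brain, each log2 value was taken less its group mean and correlated over the 20 mice for all 45 pairs of the 10 genes. Of these, 41 were positive and 13 were above 0.5. The share of all gene pairs above 0.5 was not computed, and values near 0.5 were common among all genes. Hcrt, at r = 0.49, was 4533rd of 17616 genes for Avp, and Avp, at the same r, was 1351st for Hcrt. Avp and Oxt gave r = 0.86 (permutation within groups, p = 2e-05, adjusted over the 45 pairs 0.000675; Spearman rho 0.86, p = 2e-05, adjusted 0.0009). The relation held without the 2 mice farthest out in Avp, P70 mice WT 5 and KO 5 (r = 0.83), and within P21 (0.90) and P70 (0.92). The read pairs these genes can share, described above, may also bear on both values, and their part in the correlation was not tested. Both transcripts are short, at 577 and 537 bases, and the mice differed in the deviation of short transcripts, also within P21. There the median log2 deviation of the 2009 genes under 1000 bases ran from -0.064 in KO mouse 4 to 0.156 in KO mouse 3. Avp was at 167 and 290 and Oxt at 104 and 248 in these mice. No correlation was computed with the length trend removed, so the part of transcript length was not tested.

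For Hcrt and Pmch the 3 low P70 mice formed a cluster of their own, so the relation was tested in the other 17 mice, a choice made after the values were seen. There r was 0.62 (permutation p = 0.0149, not adjusted for other pairs) and rho 0.67 (permutation p = 0.00252), and r was 0.60 without the 2 mice farthest out in Hcrt. Within P21 alone r was 0.71 over 10 mice, and within the 7 remaining P70 mice it was 0.53. With all 20 mice r was 0.95, a value that rests in good part on the cluster. Over the same 20 mice Crh did not follow this pair, at r = -0.14 with Hcrt and -0.11 with Pmch, and Cartpt was at 0.09 and 0.10. Trh was at 0.67 with Hcrt and 0.61 with Pmch, and Avp, Oxt and Gal were between 0.39 and 0.49 with either. These values also include the 3 low mice.

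**Figure D3:**
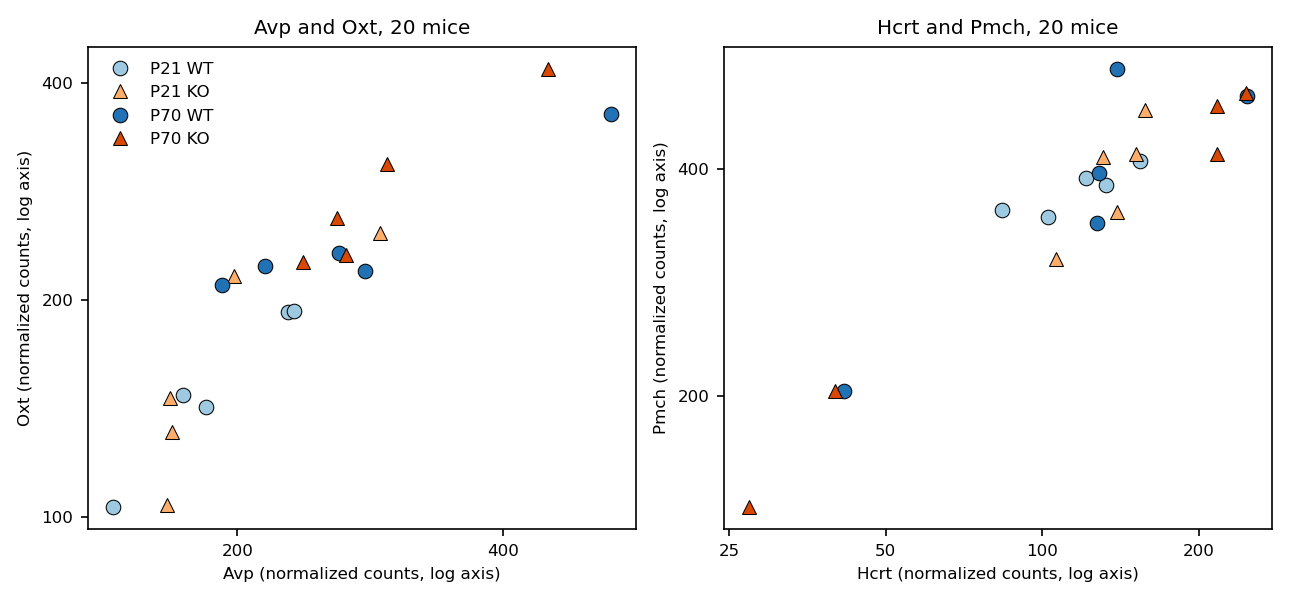
Normalized counts of Avp against Oxt (left) and Hcrt against Pmch (right) in 20 mice, both axes logarithmic, with circles for WT, triangles for KO and light colours for P21. P70 mice WT 4, KO 3 and KO 4 lie apart at the lower left of the right panel, with Hcrt at 27.3 to 41.6.

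**Figure D4:**
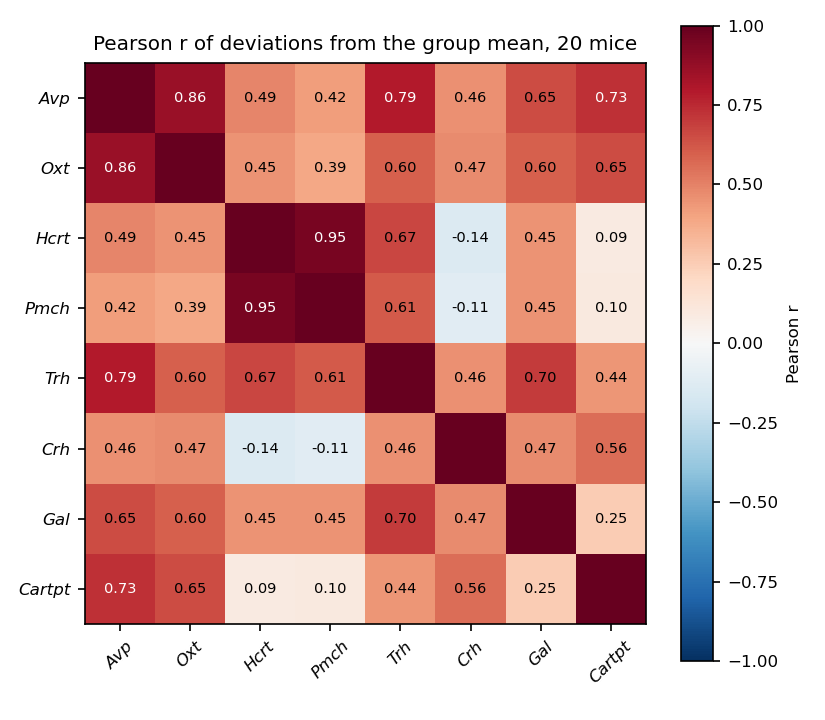
Pearson r of log2 deviations from the group mean between the 8 tested neuropeptide genes over 20 mice, with red for positive and blue for negative r. Avp, Oxt, Trh, Gal and Cartpt mostly share positive values, Hcrt with Pmch is highest at 0.95 with the low P70 mice included, and Crh is below 0 only with Hcrt and Pmch.

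Each neuropeptide gene was then ranked against all 17616 other genes of the fit by r of the deviations over 20 mice. Pmch was first of all genes for Hcrt, followed by C1qtnf2 and Fam19a4 (both 0.86). Hcrt was first for Pmch, followed by Rgs16, a regulator of G protein signalling (0.89), and C1qtnf2 (0.87). In P70 WT mice 1 to 5 Rgs16 was at 666, 624, 551, 468 and 589, and in P70 KO mice at 614, 672, 417, 516 and 583. It was lowest in WT mouse 4 and KO mice 3 and 4. Fam19a4 was at 28, 37, 39, 24 and 43 in P70 WT and at 35, 50, 14, 23 and 42 in P70 KO mice, with the same 3 mice lowest. These ranks for Hcrt and Pmch include the 3 low mice. Both genes were picked by such ranks, so their low values there follow in part from the choice and are no separate support.

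The genes most like Avp were not peptides. Dact3, Nedd8 and Selenbp1 led at r = 0.94, 0.94 and 0.93, and Oxt was 360th for Avp. For Oxt, Cmss1 (0.93), Lmo1 (0.91) and Ptgds (0.91) led, and Avp was 18th. For Gal the first gene was Dbh, which encodes the enzyme that makes noradrenaline, at r = 0.84. These likenesses are descriptions over mice that differ in depth and in transcript length bias.

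The rest of the peptide system was followed through lists of related genes. Of 20 other hypothalamic peptide genes in the table, 16 or 17 were tested in each comparison, and 0 passed between KO and WT at either age. With age 1 fell in WT and 1 rose in KO mice, beside 4.70% of all tested genes that fell in WT and 3.78% that rose in KO mice. Grp, encoding gastrin-releasing peptide, fell in WT mice from 178 ± 10.4 to 132 ± 19.1 normalized counts (SD, n = 5), a log2 change of -0.44 (SE 0.12, limma adjusted p = 0.0314). Pdyn, encoding prodynorphin, rose in KO mice from 575 ± 29.3 to 722 ± 57.1, a log2 change of 0.32 (SE 0.08, adjusted p = 0.0197). Of 13 tested receptor genes for the peptides above, 0 passed between genotypes and 1 with age within a genotype, Crhr1, the main Crh receptor of the brain, which rose in KO mice from 815 ± 39.8 to 1045 ± 94.7 (log2 change 0.35, SE 0.08, adjusted p = 0.0127). The medians with age were -0.03 and 0.02 for the other peptides and 0.03 and -0.05 for the receptors in WT and KO mice, beside 0.001 and -0.01 over all tested genes.

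Among 15 genes that process or bind peptides, 0 passed between genotypes and 2 fell with age in WT and 1 in KO mice, beside 4.70% and 4.53% of all tested genes that fell. Prep, prolyl endopeptidase, fell from 1104 ± 72.1 to 850 ± 72.3 in WT (log2 change -0.38, SE 0.08, limma adjusted p = 0.00937) and from 1113 ± 29.9 to 864 ± 50.6 in KO mice (-0.37, SE 0.06, adjusted p = 0.00404). Cpe, carboxypeptidase E, which trims peptide ends after cleavage, fell in WT mice from 51774 ± 2957 to 42745 ± 2413 (log2 change -0.28, SE 0.06, adjusted p = 0.0133). None of the 24 to 26 tested hypothalamic transcription factors passed in a genotype comparison or with age within a genotype, with medians between -0.04 and 0.07. In the contrast averaged over both genotypes, in which 12.6% of all tested genes rose and 12.8% fell, 1 of 24 rose, Nr5a1 (0.55, SE 0.19, limma adjusted p = 0.0411), and 2 fell, Nkx2-2 (-0.40, SE 0.12, adjusted p = 0.0147) and Lhx8 (-0.39, SE 0.11, adjusted p = 0.0128). In that contrast 3 of 17 other peptide genes rose and 1 fell, 2 of 13 receptor genes rose and 1 fell, and 2 of 15 processing genes rose and 2 fell.

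Markers of tissue that adjoins the hypothalamus were read in the same mice. Of 11 tanycyte and median eminence genes, 3 fell with age in WT and 2 in KO mice, with Vcan at -0.76 (SE 0.13, limma adjusted p = 0.00258) and -0.95 (SE 0.16, adjusted p = 0.00366) on the log2 scale, respectively, beside 4.70% and 4.53% of all tested genes that fell. These genes are also expressed in other glial and endothelial cells. Their summed normalized counts were lowest of all 20 mice in the P70 mice numbered 5, at 7932 in KO and 8924 in WT, which are the mice with shifted short transcripts. Of 16 choroid plexus genes, 2 rose with age in WT mice, Kcnj13 (0.70, SE 0.20, adjusted p = 0.0472) and Kl (0.69, SE 0.14, adjusted p = 0.00877), and 0 in KO mice, beside 4.62% and 3.78% of all tested genes that rose. P70 WT mouse 5 had the highest summed choroid plexus level of its group, 40180 normalized counts against 22869 to 34084 in the other P70 WT mice. P70 KO mouse 5, at 39026, was not the highest of its group and lay below KO mice 2 (40723) and 3 (39599). In the averaged contrast 5 of 16 rose and 1 fell, and 4 of 11 tanycyte and median eminence genes and 1 of 5 pituitary genes fell. Between genotypes 0 of the 16 passed, while the log2 difference was above 0 for 16 of 16 at both ages. The medians were 0.25 at P21 and 0.23 at P70, beside 0.004 and -0.005 over all tested genes. As markers of 1 tissue the 16 genes are not independent observations. Their summed levels overlapped between KO and WT mice, at 27992 to 44138 and 25557 to 31799 at P21 and at 25799 to 40723 and 22869 to 40180 at P70. The summed choroid plexus level ranged from 22869 to 44138 normalized counts over all mice and was highest in P21 KO mouse 3. Of 5 anterior pituitary genes in the table, 0 passed between genotypes or with age within a genotype, with summed levels of 83.9 to 7499. The part of adjoining tissue in the Avp and Oxt differences with age was not tested.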

How the data were processed

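Whole-brain poly-A RNA of 20 male mice was sequenced by the authors as 2 × 100 base paired reads. Abundances came from Salmon 1.1.0 against GRCm38, corrected for GC bias, were read into R by tximport and were scaled between mice by the authors using DESeq2 (1.26.0 under R 3.6.2 in the submitters' processing notes; the methods name other versions). The deposited signal values are these normalized counts, not raw counts. Whole reads could not be recovered, so no count test was run. The design named a count test only for raw counts.

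The 10 genes, the related gene lists and the tests were chosen with earlier results of these data known, and the lists of that earlier work were not taken as independent support. IDs were matched to GENCODE M21 symbols (19447 of 19463). Each comparison was fitted on its own 10 mice, and the interaction on 20, with limma 3.58.1 in R 4.3.3 (lmFit, eBayes with trend) on log2(value + 1). Genes needed a mean of at least 10, p-values were adjusted by Benjamini-Hochberg over all genes tested, and the threshold was 0.05. Fold changes on this scale understate the change of low genes. Animals were separate, so p-values measure the spread between mice. Correlations used 100000 two-sided permutations within groups. Named genes were the 10 genes, Katnal2, up to 3 called genes per list and comparison with the largest fold change, and the genes most like each neuropeptide gene, of which a selection is given, and 1 gene of the lists is not reported here. Rgs16, Fam19a4, Lhx9 and Gh were given by mouse after their values were seen. Depth was estimated from the spacing of low values. Alternatives were other pseudocounts, filters, scalings, fits and samples. Sequences were read with Biopython 1.88.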

Additional observations from a re-analysis of the deposited data

Results flagged for a closer look

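In each of the 40 groups of 5 mice formed by the 10 genes and 4 groups, the gap between the most extreme mouse and its nearest neighbour was set against the range, and 5 groups exceeded Dixon's 95% limit of 0.71, where chance flags about 1 in 20 groups. Avp was far above the others in P70 WT mouse 5 (529, next highest 279), in P70 KO mouse 5 (450, next 295) and in P21 KO mouse 3 (290, next 199). Oxt was flagged in P70 WT mouse 5 (363, next 232). Cartpt was flagged in P21 KO mouse 3 (330, next 254). The 2 P70 mice are those with shifted short transcripts, and P21 KO mouse 3 is one of those with Gh over 1000. Its 2009 short genes also had a median log2 deviation of 0.16 from their means over all 20 mice. The part of these shifts in the flagged values was not tested.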

How the results depend on the processing

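No setting gave a neuropeptide gene that passed between KO and WT at either age or in the interaction. The count of neuropeptide genes called higher at P70 in WT mice (1, Oxt) was 0 without the intensity trend and in a single fit of 20 mice. It was also 0 without the mice with Gh over 1000, and 2 with the length correction. In WT only P21 mouse 2 had such a Gh value, so this fit is the same as leaving out that mouse alone. In KO mice the count was 0, but 1 in the single fit and without the mice with high Gh, and 2 with the length correction. Over all 12 such settings the adjusted p of Oxt in WT ran from 0.00502 to 0.0807, of Oxt in KO from 0.0185 to 0.0901, of Avp in WT from 0.0438 to 0.259 and of Avp in KO mice from 0.0171 to 0.141. Leaving out 1 mouse at a time gave 0 to 1 called neuropeptide genes in WT and 0 to 2 in KO mice. The call of Oxt in WT was lost without P21 WT mouse 1 (adjusted p = 0.0766), 2 (0.0807) or 4 (0.0893) or P70 WT mouse 1 (0.0553), 2 (0.0658) or 4 (0.0547), and its log2 change stayed between 0.54 and 0.77. Without P21 KO mouse 3, Oxt (0.0308) and Avp (0.0268) passed in KO mice.

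Over all genes, leaving out 1 mouse gave 912 to 3000 calls for age in WT (1643 with all mice), 896 to 3759 in KO mice (1467 with all mice) and 0 to 1 for KO against WT at P21. Leaving out both P70 mice numbered 5 gave 3000, 3759 and, for KO against WT at P70, 1. Leaving out the mice with high Gh gave 729 in KO mice. Same-numbered mice are different animals, and the correlation of their deviations exceeded 0.1 in 2 of 5 pairs between the P21 groups (-0.01 to 0.26) and in 4 of 5 between the P70 groups (0.07 to 0.71), so the numbers were not taken as pairs. A mouse deviated most like the same-numbered mouse in 3 of 5 cases at P21 and in 4 of 5 at P70, a hint from the data and not from the design. With the replicate block, 0 neuropeptide genes were called between genotypes, 1 with age in WT and 0 with age in KO mice, and 913 of all genes were called with age in KO mice.

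None of the fold changes that turned sign had passed the threshold. Without the mice with high Gh, KO against WT at P21 became -0.12 for Cartpt, -0.10 for Oxt, -0.05 for Pmch and -0.13 for Avp, and at P70 0.08 for Trh, 0.05 for Gal, 0.02 for Pmch and 0.31 for Hcrt. In the same mice age became -0.01 for Hcrt in WT, and 0.09 for Trh, 0.04 for Pmch, 0.17 for Hcrt and 0.02 for Crh in KO mice, and the interaction 0.19 for Trh, 0.07 for Pmch, 0.18 for Hcrt and 0.005 for Crh. Without both mice numbered 5, Crh became -0.01 between genotypes at P70 and Hcrt -0.23 with age in WT. Trh at P21 became 0.01 with the transcription factor level as a covariate. Pmch with age in WT became 0.0012 with a pseudocount of 8, 0.01 with quantile normalization and 0.02 with the length correction, and Crh with age in KO mice 0.004 with quantile normalization. With 1 mouse left out, 60 of 480 fold changes turned sign. Their ranges for KO against WT at P21 were -0.10 to 0.06 for Trh, -0.03 to 0.13 for Cartpt, -0.07 to 0.24 for Oxt, -0.02 to 0.14 for Pmch and -0.12 to 0.10 for Avp. At P70 they were -0.26 to 0.09 for Trh, -0.17 to 0.05 for Gal, -0.48 to 0.02 for Pmch, -0.06 to 0.32 for Avp, -0.54 to 0.31 for Hcrt and -0.03 to 0.14 for Crh. With age they were -0.13 to 0.22 for Pmch, -0.23 to 0.40 for Hcrt and -0.01 to 0.12 for Crh in WT, and -0.32 to 0.01 for Trh, -0.67 to 0.12 for Hcrt and -0.12 to 0.05 for Crh in KO mice. In the interaction they were -0.24 to 0.11 for Trh, -0.0048 to 0.17 for Cartpt, -0.03 to 0.28 for Oxt, -0.09 to 0.29 for Avp, -0.76 to 0.09 for Hcrt and -0.15 to 0.02 for Crh.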
